A study of Homo sapiens with 6 samples.

Results

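Cadherins and protocadherins are cell surface proteins that bind copies of themselves on neighbouring cells through repeated extracellular domains that need calcium. The genes described here are the protein-coding genes of the deposited count and TPM tables whose symbol is CDH followed by digits only or begins with PCDH, 89 of the 57914 genes listed. RNA was measured in A375, an established human melanoma cell line, after staining with Aldefluor, a substrate that turns fluorescent inside cells with aldehyde dehydrogenase (ALDH) activity. ALDH_High denotes the cells with the strongest 5% of the signal and ALDH_Low those with the weakest 5%, each with 3 libraries; all came from this 1 line, grown in DMEM with fetal calf serum, and the labels name no other treatment or genotype. The study asked how the transcriptomes of the extremes of ALDH activity differ, and its title names ALDH1A3. The labels do not say whether the libraries of a group came from separate cultures, so p-values measure the spread between these samples, which may be technical.

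Classical cadherins link to the actin cytoskeleton through catenins and hold like cells together, and the change from E-cadherin to N-cadherin is a known feature of melanoma, in which the pigment cell lineage loses its contact with keratinocytes. Type II cadherins are their relatives and are known for sorting neurons and neural crest cells. Non-clustered protocadherins of the delta-1 and delta-2 groups are anchored outside the catenin system and several act on the actin regulators of the WAVE complex. Clustered protocadherins lie in tandem on chromosome 5 as alpha, beta and gamma genes. Each alpha and gamma gene has its own promoter and first exon, which is spliced to constant exons shared by its cluster, and the factor CTCF with cohesin is known to take part in promoter choice.

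The promoters of the clustered genes carry short sequences that their neighbours share, so a stretch around these is shown for genes that rose and genes that did not. The sequences come from RefSeq promoters of build GRCh38.p14, each covering 250 bases before to 50 after the gene's start, and 70 of the 89 members were matched. The shared words were read from these promoters and then counted on both strands. In the beta cluster GGCGCTGC was found in 11 of 14 genes with a promoter, and in 4.38% of all 35116 promoters. PCDHB5 and PCDHB16 were higher in ALDH_High, whereas PCDHB2 and PCDHB8 did not pass the test. The capitals mark GGCGCTGC.
PCDHB5, chr5:141135169-141135224, plus strand: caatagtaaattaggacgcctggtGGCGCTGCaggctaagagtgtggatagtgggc
PCDHB16, chr5:141182300-141182355, plus strand: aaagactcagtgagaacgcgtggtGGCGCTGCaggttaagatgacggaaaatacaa
PCDHB2, chr5:141094534-141094589, plus strand: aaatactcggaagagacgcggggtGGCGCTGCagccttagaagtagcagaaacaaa
PCDHB8, chr5:141177767-141177819, plus strand: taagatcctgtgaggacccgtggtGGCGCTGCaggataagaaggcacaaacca

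In the alpha cluster GATGTCNCT, where N is any base, was found in 10 of 13 genes and in 0.817% of all promoters, and in no beta or gamma gene with a promoter. PCDHA2 and PCDHA7 were higher in ALDH_High and PCDHA6 did not pass the test. The capitals mark GATGTCNCT.
PCDHA2, chr5:140794768-140794824, plus strand: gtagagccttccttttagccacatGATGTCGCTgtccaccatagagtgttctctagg
PCDHA7, chr5:140834159-140834215, plus strand: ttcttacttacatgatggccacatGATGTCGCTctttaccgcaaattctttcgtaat
PCDHA6, chr5:140827884-140827940, plus strand: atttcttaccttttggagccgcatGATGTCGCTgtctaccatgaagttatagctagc

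In the gamma cluster CGCTGT was found in 17 of 20 genes and in 11.2% of all promoters. It was also found in 7 of 13 alpha genes, 1 of 14 beta genes and 6 of 23 members outside the clusters. PCDHGA10 and PCDHGC3 were higher in ALDH_High and PCDHGA2 did not pass the test. The capitals mark CGCTGT, whose first 5 letters also occur in GGCGCTGC and which can overlap the end of GATGTCNCT, as in the stretches of PCDHA2 and PCDHA6.
PCDHGA10, chr5:141412923-141412976, plus strand: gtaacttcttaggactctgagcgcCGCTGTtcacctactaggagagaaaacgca
PCDHGC3, chr5:141475872-141475925, plus strand: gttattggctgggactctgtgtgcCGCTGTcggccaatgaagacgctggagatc
PCDHGA2, chr5:141338695-141338748, plus strand: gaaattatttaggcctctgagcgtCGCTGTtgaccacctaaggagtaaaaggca

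The words stood in promoters of members that rose and of members that did not, and a match is a description of the letters only.

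Total counts per library were between 26692868 and 37830603, and the members took 0.0851% to 0.0999% of the counts in ALDH_High and 0.0569% to 0.0645% in ALDH_Low. The first principal component of all tested genes separated the groups (64.2% of variance). On the second (14.5%) ALDH_High replicate 1 lay at 49.1 and the other libraries between -32.5 and 12. This library had the highest value of the ALDH_High libraries in 16 of the 19 members that were called higher, and in 39 of all 70 tested members. Without it 18 members were called higher: PCDHGB1 and PCDHGC4 lost their call and PCDHB9 gained one. Values from the fit without it are given below for some of these members. Of the melanocyte markers, SOX10, S100A1 and S100B were higher and MITF lower in ALDH_High, while MLANA and TYR had at most 3 counts in every library. The summed CPM (counts per 1000000 counts of the library) of the 9 markers was 658 to 887 in ALDH_High and 208 to 235 in ALDH_Low. Most of this was SOX10, which averaged 670 CPM in ALDH_High and 194 in ALDH_Low. Markers of other cell types moved as well, and their part in the results was not tested. White blood cell markers summed to 14.2 to 29.5 CPM in ALDH_High and 58.9 to 69.9 in ALDH_Low. Most of this was CD68, which averaged 17.4 and 63.1 CPM. CD68 and CD14 were lower and LYZ higher, while PTPRC had at most 4 counts in a library and MS4A1 was at 0. Endothelial markers summed to 16.1 to 17.2 and 7.31 to 10.4, with KDR higher, TIE1 lower and CLDN5 at 0. KDR alone averaged 11.1 and 0.905 CPM, and only 1 of the 6 tested endothelial markers had a positive fold change. Keratinocyte markers summed to 44.6 to 69.5 and 61.3 to 71.6 with SFN and KRT5 lower, and fibroblast markers to 18.8 to 20.2 and 20.2 to 25 with PDGFRB lower. All libraries came from 1 line, so these values are RNA levels in its sorted cells and not numbers of cells of other types. In all these values fewer cells with an RNA and less of it per cell cannot be told apart.

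Members of the family were called in both directions between the sorted cells. Of the 89 members, 70 had enough counts to be tested; the other 19 had at most 46 counts in a library. By edgeR's quasi-likelihood test with Benjamini-Hochberg adjustment over all 17047 genes tested, 24 of the 70 passed an adjusted p of 0.05, against 20.6% of all genes tested. ALDH_High was higher for 19 members (27.1%), against 10.8% of all genes, and lower for 5 (7.14%), against 9.83%. All 15 called clustered protocadherins were higher in ALDH_High, 30% of the 50 tested. Outside the clusters 4 were higher and 5 lower, 20% and 25% of the 20 tested. At an unadjusted p under 0.05 by edgeR, 25 clustered genes were higher and 2 lower, and DESeq2 called 17 higher and 0 lower. The shares of all genes at these settings are not given here, so these counts have no background beside them. The median log2 fold change (ALDH_High over ALDH_Low throughout) was 0.37 over the tested members, 0.63 over the 50 tested clustered genes and 0.06 over the other 20, beside -0.013 over all genes tested. The 3 ALDH_High libraries all lay above the 3 ALDH_Low libraries for 31 of the 70 members, against 18.6% of all genes, and all below for 7, against 19.1%. For such a gene the exact two-sided permutation test gives 0.1, the smallest p that 3 against 3 libraries allow.

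**Figure D1:**
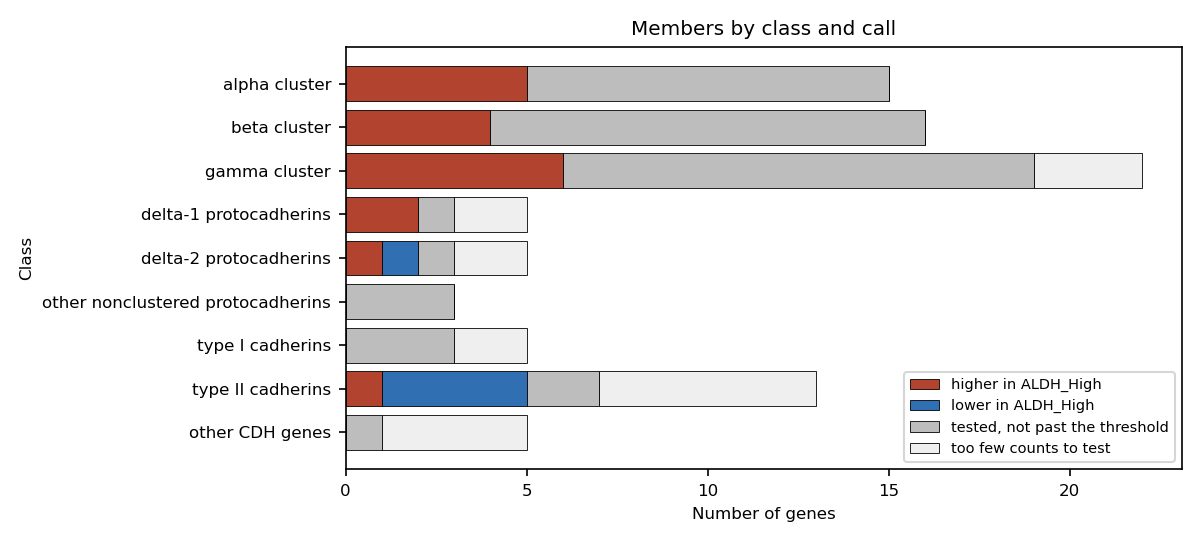
Number of members (x axis) in each class of the family (y axis), split by call in ALDH_High against ALDH_Low at an adjusted p of 0.05. The clusters hold higher calls and no lower ones, and 4 of the 5 lower calls are type II cadherins.

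The counts of calls changed when single libraries were left out. Without ALDH_Low replicate 3 the number of higher members was 8, and without ALDH_Low replicate 2 it was 11. Without ALDH_High replicate 1 the number of lower members was 9. The shares of all genes called in these fits, which have fewer libraries, are not given here. Whether the changes are particular to the members was not tested. Of the 24 called members, 9 kept their call in all 6 fits that left out 1 library: PCDH1, PCDHGC3, PCDHA9, PCDHB6, PCDHB16, CDH19, CDH7, CDH24 and PCDH10. The other 15 lost it in at least 1 of these fits, as named below. A separate fit on log2(TPM + 1) with limma, which tested fewer members, called 7 higher and 4 lower.

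Levels of different genes were compared in TPM (transcript abundance per gene length, scaled to the same total in every library). By the deposited TPM, 4 genes held most of the family's RNA. PCDHGC3, CDH13, CDH2 and PCDH1 together made up 55.1% to 63.7% of the summed TPM of the members in each library. In ALDH_High the order of mean levels was PCDHGC3 at 72.3 ± 16.6 TPM (SD, n = 3), CDH13 at 53 ± 2.6, PCDH1 at 51.8 ± 11.8 and CDH2 at 48.2 ± 6.26. The values of CDH13, PCDH1 and CDH2 overlapped, so that their order is within the spread, and all 3 PCDHGC3 libraries were above every CDH13 and CDH2 library but not above every PCDH1 library. In ALDH_Low CDH2 had 50.6 ± 7.04 TPM, CDH13 48.9 ± 5.95 and PCDHGC3 29.8 ± 4.93, and PCDH1 had 8.22 ± 1.93, beside PCDHB2 at 10.9 ± 0.624 and PCDH10 at 10.7 ± 1.8. CDH2 and CDH13 overlapped there, and all 3 libraries of PCDHGC3 were below both. The summed TPM of all members was 391, 354 and 363 in ALDH_High and 258, 260 and 221 in ALDH_Low. As a share of that sum, CDH2 was 13.1% ± 2.22 in ALDH_High and 20.6% ± 2.28 in ALDH_Low, and PCDH1 was 14% ± 2.41 and 3.35% ± 0.765.

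**Figure D2:**
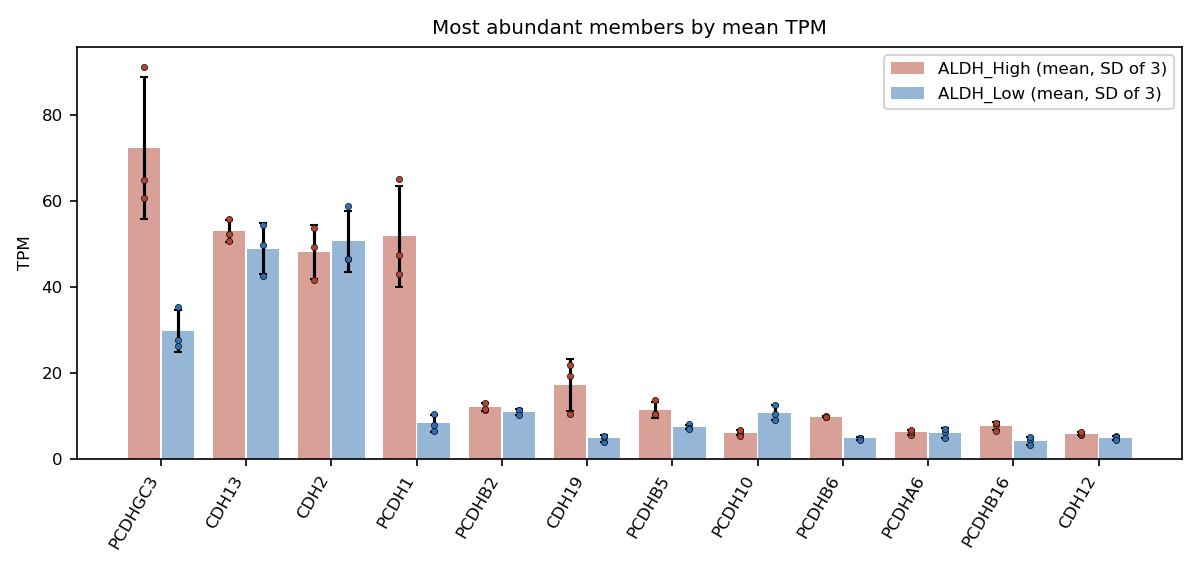
TPM (y axis) of the 12 members with the highest mean over all libraries (x axis); bars are group means, error bars the SD of 3 libraries and points the libraries. PCDHGC3 and PCDH1 stand higher in ALDH_High, and CDH13 and CDH2 overlap between the groups.

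Among type I cadherins, the adhesion molecules of the epithelial and neural junctions, no member passed the edgeR or DESeq2 test, and at an unadjusted p under 0.05 CDH3 and CDH4 were lower. CDH2 (N-cadherin, the main classical cadherin of melanoma cells; chr18:27932879-28177946, minus strand) had 115, 123 and 131 CPM in ALDH_High and 121, 153 and 128 CPM in ALDH_Low. The groups overlapped, with a log2 fold change of -0.12 (SE 0.12, adjusted p = 0.537 by edgeR). CDH1 (E-cadherin, the cadherin of keratinocyte contacts) had 3, 3 and 7 counts in ALDH_High and 38, 2 and 7 in ALDH_Low, too few to test, with 1 library, ALDH_Low replicate 1, above the rest. CDH3 (P-cadherin of basal epithelium) had 0.71, 0.232 and 0.0879 CPM in ALDH_High and 0.597, 0.87 and 1.22 CPM in ALDH_Low. It had a log2 fold change of -1.43 (SE 0.62, adjusted p = 0.14), and without ALDH_High replicate 1, its highest library in that group, one of -2.43 with an adjusted p of 0.0161. CDH4 was at 0.19 CPM in ALDH_High and 0.509 in ALDH_Low on average and did not pass, except without ALDH_High replicate 1 (adjusted p = 0.0309). Its chromosome 20 had a median log2 fold change of 0.28 over 355 tested genes, 82% of them positive. CDH15 had at most 6 counts. At this depth the sorted cells had N-cadherin as the only type I cadherin with a mean above 1 CPM in either group.

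CDH13 (T-cadherin, which is held in the membrane by a lipid anchor and has no cytoplasmic tail) was the other abundant cadherin with like levels in both groups. It had 113, 112 and 103 CPM in ALDH_High and 104, 114 and 94.8 CPM in ALDH_Low. The groups overlapped (log2 fold change 0.07, SE 0.11, adjusted p = 0.723). CDH16, CDH17, CDH23 and CDH26, which stand apart from the classical cadherins in sequence, had at most 23 counts in a library and were below the count filter of the edgeR test. CDH23 (a cadherin of the tip links of hair cells) had 23, 6 and 16 counts in ALDH_High and 0, 2 and 4 in ALDH_Low. DESeq2, edgeR with no low-count filter and the fit without ALDH_High replicate 2 called it higher (adjusted p 0.00117 to 0.0346).

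Type II cadherins included the largest fall among the members tested by edgeR and a rise, in genes that are neighbours. CDH7 and CDH19 lie on chromosome 18 with 610745 bases between them and no other protein-coding gene of the table in that gap. CDH7 (a cadherin of migrating neural crest cells in the embryo; chr18:65750252-65890337, plus strand) had 0.355, 0.376 and 0.147 CPM in ALDH_High and 4.2, 4.08 and 2.91 CPM in ALDH_Low. Its values were low in every ALDH_High library and the groups were far apart (12.8-fold lower, log2 fold change -3.67, SE 0.38, adjusted p = 0.000125). CDH19 (found in Schwann cell precursors of the neural crest; chr18:66501083-66604138, minus strand) had 21.3, 36.2 and 39.9 CPM in ALDH_High and 7.6, 9.64 and 11.2 CPM in ALDH_Low. The groups did not overlap, although ALDH_High replicate 1 was lower than the other ALDH_High libraries (3.44-fold higher, log2 fold change 1.78, SE 0.24, adjusted p = 0.000565). Both calls held in all 6 fits that left out a library. The median over the 191 genes tested on chromosome 18 was -0.23, and 31.4% of them had a positive fold change.

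The bases before the starts of these neighbours are shown because the genes moved in opposite directions: 250 for CDH7 and 202 for CDH19, whose RefSeq start lies 48 bases inside the GENCODE gene, so that its stretch ends at the GENCODE start. The capitals mark ACAAAG, a word of the kind bound by SOX factors, which was searched on both strands since SOX10 was higher in ALDH_High. It was found once in each of the stretches, in 16.1% of all promoters, and in 6 of 23 promoters of members outside the clusters. In the clusters it was found in 4 of 13 alpha, 4 of 14 beta and 7 of 20 gamma promoters. RefSeq gave 2 promoters for CDH7, of which the first is shown.
CDH19, chr18:66604139-66604340, minus strand: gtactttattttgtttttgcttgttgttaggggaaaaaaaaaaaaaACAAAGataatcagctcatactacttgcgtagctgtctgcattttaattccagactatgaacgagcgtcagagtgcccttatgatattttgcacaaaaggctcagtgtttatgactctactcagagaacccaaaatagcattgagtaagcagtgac
CDH7, chr18:65750002-65750251, plus strand: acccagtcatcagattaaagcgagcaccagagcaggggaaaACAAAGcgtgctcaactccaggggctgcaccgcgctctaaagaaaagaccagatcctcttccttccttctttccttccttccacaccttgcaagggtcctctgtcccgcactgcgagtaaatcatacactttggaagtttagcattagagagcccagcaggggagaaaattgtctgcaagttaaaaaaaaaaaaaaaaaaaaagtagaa

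Of the other type II cadherins, 3 were lower in ALDH_High. CDH24 (which binds catenins at cell contacts; chr14:23047062-23057538, minus strand) had 3.55, 5.27 and 6.54 CPM in ALDH_High and 11.5, 12.3 and 13.3 CPM in ALDH_Low, which did not overlap (log2 fold change -1.27, SE 0.23, adjusted p = 0.003). CDH11 (OB-cadherin of mesenchymal and bone cells; chr16:64943753-65126112, minus strand) had 0.0789, 0.145 and 0.733 CPM in ALDH_High and 2.46, 1.3 and 1.73 CPM in ALDH_Low. ALDH_High replicate 3 was the highest of its group but still below all ALDH_Low libraries (log2 fold change -2.47, SE 0.63, adjusted p = 0.0191). CDH6 (K-cadherin, known from kidney and neural crest; chr5:31193686-31329146, plus strand) had 1.34, 1.1 and 1.55 CPM in ALDH_High and 2.59, 3.04 and 2.98 CPM in ALDH_Low, again without overlap (log2 fold change -1.11, SE 0.26, adjusted p = 0.0145). The call of CDH11 was lost without ALDH_High replicate 2, ALDH_Low replicate 1 or ALDH_Low replicate 3 (adjusted p 0.0593 to 0.0749), and its log2 fold change was -3.93 without ALDH_High replicate 3. The call of CDH6 was lost without ALDH_High replicate 2, ALDH_Low replicate 2 or ALDH_Low replicate 3 (adjusted p 0.0504 to 0.0686). CDH12 and CDH8 did not pass, and CDH5 (VE-cadherin of endothelium), CDH9, CDH10, CDH18, CDH20 and CDH22 had at most 20 counts in a library.

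The delta-1 protocadherins had the largest rise among the members tested by edgeR. PCDH1 (a protocadherin of epithelial cell contacts; chr5:141853090-141879246, minus strand) had 189, 112 and 121 CPM in ALDH_High and 28.2, 17.8 and 22.6 CPM in ALDH_Low. The groups did not overlap and lay 6.15-fold apart (log2 fold change 2.62, SE 0.23, adjusted p = 4.35e-05). Whichever library was left out, the log2 fold change was between 2.37 and 2.82, the lowest being without ALDH_High replicate 1. PCDH7 (a protocadherin that binds PP1 phosphatase through its cytoplasmic tail; chr4:30720369-31146805, plus strand) had 22.3, 7.5 and 8.68 CPM in ALDH_High and 4.8, 1.81 and 3.45 CPM in ALDH_Low. ALDH_High replicate 1 was well above the others, and the groups did not overlap (log2 fold change 1.92, SE 0.45, adjusted p = 0.0133). Without ALDH_High replicate 1 the log2 fold change was 1.28 (adjusted p 0.0255), and without ALDH_Low replicate 3 the adjusted p was 0.0606. PCDH9 averaged 20 CPM in ALDH_High and 12 in ALDH_Low, with a log2 fold change of 0.73 and an adjusted p of 0.0532. It was called higher by DESeq2, with the replicate block, with no low-count filter and without ALDH_High replicate 3 or ALDH_Low replicate 1 (adjusted p 0.0007 to 0.0496). PCDH9 lies on chromosome 13, where the median over the 229 genes tested was 0.37 and 85.2% had a positive fold change, and its part in the value was not tested. PCDH11X had at most 3 counts in each ALDH_High library and 6, 22 and 21 counts in ALDH_Low. Its mean was at least 5.62-fold lower in ALDH_High, computed against 3 counts per library, and it was below the count filter of the edgeR test, as was its near-identical copy PCDH11Y. DESeq2 and edgeR with no low-count filter called both lower. PCDH11X was called in 5 of the 7 fits that gave it a value and PCDH11Y in 6 of 7. Reads of either copy may have been counted in the other, so these may not be separate results. The limit given for PCDH11X does not include reads counted in PCDH11Y.

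Delta-2 protocadherins moved in opposite directions. PCDH10 (which recruits the WAVE complex through NCKAP1; chr4:133149294-133208606, plus strand) had 22.8, 18 and 22 CPM in ALDH_High and 31.5, 44 and 39.1 CPM in ALDH_Low. All ALDH_High libraries were below all ALDH_Low libraries (1.83-fold lower, log2 fold change -0.87, SE 0.16, adjusted p = 0.00323). PCDH18 (which binds the adaptor DAB1; chr4:137518918-137532494, minus strand) had 4.14, 2.52 and 3.69 CPM in ALDH_High and 1.63, 1.1 and 1.76 CPM in ALDH_Low, without overlap (log2 fold change 1.20, SE 0.30, adjusted p = 0.0177). Its call was lost without ALDH_High replicate 3 or ALDH_Low replicate 2 (adjusted p 0.0529 and 0.0706). PCDH17 was at 15.5 and 16.1 CPM and did not pass, PCDH19 had at most 5 counts, and PCDH8 had 0 counts in every library. The remaining non-clustered protocadherins PCDH12, PCDH15 and PCDH20 averaged under 1 CPM in both groups and did not pass, with log2 fold changes of 0.20 to 0.22. PCDH17 and PCDH20 lie on chromosome 13 as PCDH9 does.

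**Figure D3:**
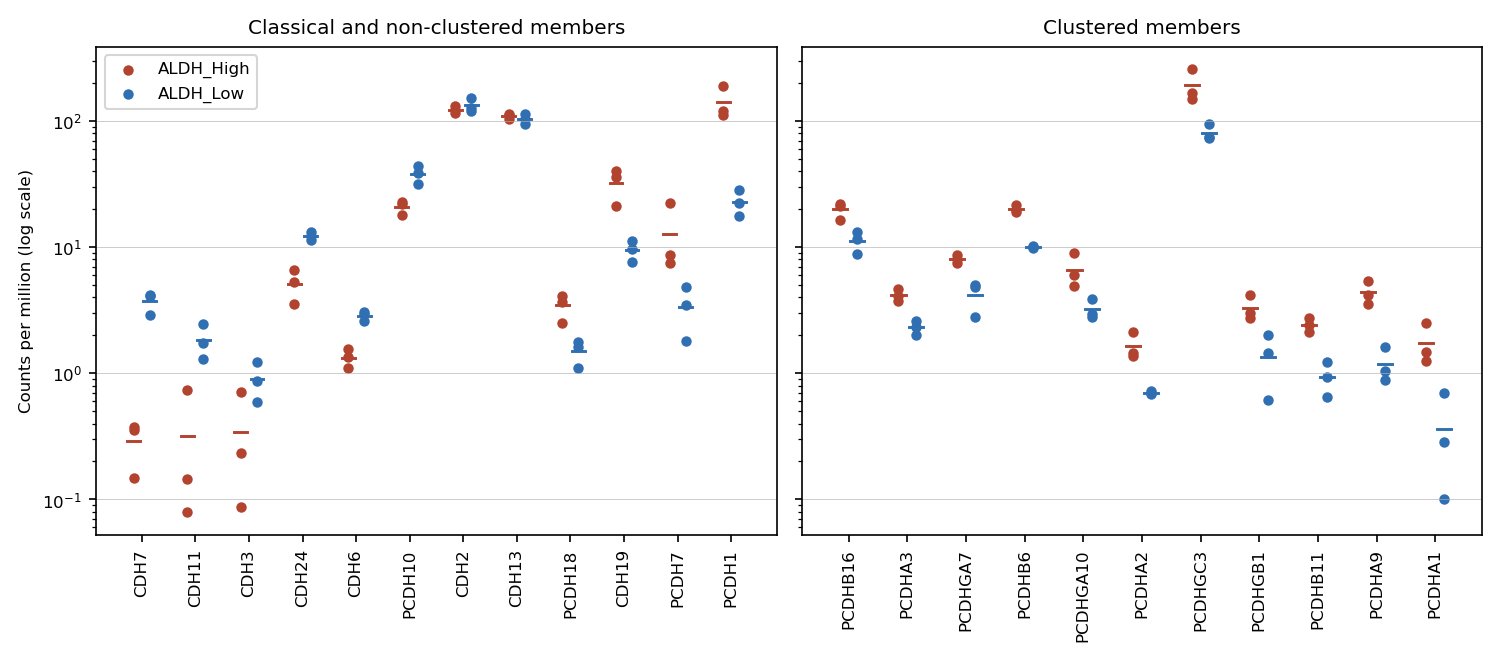
CPM on a log scale (y axis) of the tested members named by rule (x axis), by library; short lines are group means of 3 libraries. CDH7, CDH11, CDH24, CDH6 and PCDH10 lie lower in every ALDH_High library, CDH2, CDH13 and CDH3 overlap, and the other genes lie higher in every ALDH_High library.

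The gamma cluster (22 genes, chr5:141330514-141512977) had its RNA mostly from 1 gene. PCDHGC3 (a C-type gene at the 3' end of the array, expressed in many tissues; chr5:141475947-141512977, plus strand) had 258, 166 and 151 CPM in ALDH_High and 94.3, 73.3 and 74.3 CPM in ALDH_Low. Replicate 1 was the highest library in both groups, and the groups did not overlap (2.38-fold higher, log2 fold change 1.25, SE 0.20, adjusted p = 0.0016). Its call held in all 6 fits without 1 library, where the log2 fold change was 0.99 to 1.41, the lowest being without ALDH_High replicate 1. Summed over the cluster, CPM was 226 ± 61.3 in ALDH_High and 101 ± 14.8 in ALDH_Low (SD, n = 3), a ratio of 2.24. Without PCDHGC3 the sums were 34.6 ± 3.44 and 20.5 ± 3.29, a ratio of 1.69, with the lowest ALDH_High library at 32.3 and the highest ALDH_Low library at 23.8.

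Of the 19 tested gamma genes, 6 rose (31.6%) and none fell, against 10.8% and 9.83% of all genes tested. Their median log2 fold change was 0.75. PCDHGA3, PCDHGA11 and PCDHGB3 had too few counts. PCDHGA10, an A-type gene of the variable array like PCDHGA7, had 9.03, 4.89 and 5.98 CPM in ALDH_High and 3.89, 2.98 and 2.8 CPM in ALDH_Low (fitted log2 fold change 1.03, SE 0.27, adjusted p = 0.0222). PCDHGA7 had 8.68, 8.02 and 7.56 CPM against 4.8, 5.02 and 2.8 CPM (log2 fold change 0.94, SE 0.24, adjusted p = 0.0201). PCDHGB1, a B-type gene, had 4.18, 3.01 and 2.76 CPM against 2.02, 1.44 and 0.611 CPM (log2 fold change 1.26, SE 0.39, adjusted p = 0.0463). In each of these genes the groups did not overlap. PCDHGA12 and PCDHGC4, which averaged under the 1 CPM used for naming and were added after their values were seen, had log2 fold changes of 2.10 and 1.87 (adjusted p 0.0158 and 0.0389). The call of PCDHGA10 was lost without ALDH_Low replicate 2 or 3, that of PCDHGA7 without ALDH_High replicate 2, and that of PCDHGA12 without ALDH_Low replicate 1 or 3. PCDHGB1 lost it in 5 of the 6 fits, all but the one without ALDH_Low replicate 1, and PCDHGC4 in all 6. The log2 fold change of PCDHGA12 was 2.74 without ALDH_Low replicate 2, and that of PCDHGA10 was 0.76 without ALDH_High replicate 1. PCDHGA2 and PCDHGB5 had log2 fold changes of -0.94 and -0.96 and did not pass (adjusted p 0.15 and 0.138), with all ALDH_Low libraries above.

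In the alpha cluster (15 genes, chr5:140786136-141012347) all genes were tested, with a median log2 fold change of 0.69. Of these, 5 rose (33.3%) and none fell, against 10.8% and 9.83% of all genes tested. PCDHA9 had 5.44, 4.17 and 3.55 CPM in ALDH_High and 0.882, 1.04 and 1.62 CPM in ALDH_Low. The groups did not overlap (3.73-fold higher, log2 fold change 1.90, SE 0.31, adjusted p = 0.0018), and its call held whichever library was left out. PCDHA1, the first gene of the array, had 2.52, 1.48 and 1.26 CPM against 0.7, 0.1 and 0.288 CPM (log2 fold change 2.20, SE 0.56, adjusted p = 0.0198). PCDHA2 had 2.13, 1.36 and 1.44 CPM against 0.726, 0.703 and 0.683 CPM (log2 fold change 1.21, SE 0.32, adjusted p = 0.0235). PCDHA3 had 4.69, 3.76 and 4.1 CPM against 2.31, 2.61 and 2.01 CPM (log2 fold change 0.85, SE 0.23, adjusted p = 0.026). These first 3 genes of the array thus had no overlap between groups. PCDHA7, named after its values were seen, had a log2 fold change of 0.72 (SE 0.19, adjusted p = 0.0253). The log2 fold change of PCDHA1 was 3.17 without ALDH_Low replicate 1 and 1.87 without ALDH_High replicate 1. PCDHA1 lost its call without ALDH_Low replicate 2 or 3, PCDHA2 when any 1 ALDH_Low library was left out, PCDHA3 without ALDH_High replicate 3 or ALDH_Low replicate 1 or 3, and PCDHA7 without ALDH_High replicate 2 or ALDH_Low replicate 2 or 3 (adjusted p 0.0505 to 0.0903 over these fits).

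PCDHA6, the most abundant alpha gene by TPM, averaged 14.6 CPM in both groups (log2 fold change 0.00, SE 0.16, adjusted p = 0.999). The C-type genes at the end of the array did not share the sign of PCDHGC3. PCDHAC1 had a log2 fold change of -0.28 (adjusted p = 0.601) and PCDHAC2 one of -0.60 (adjusted p = 0.238), with 4.38, 3.18 and 2.81 CPM in ALDH_High and 4.31, 7.93 and 3.49 CPM in ALDH_Low. Only ALDH_Low replicate 2 stood above the rest in PCDHAC2. Summed over the alpha cluster, CPM was 63.3 ± 5.75 in ALDH_High and 49.1 ± 6.76 in ALDH_Low, a ratio of 1.29.

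The genes of the beta cluster (16 genes, chr5:141051374-141249365) are single exons with no constant part, and their median log2 fold change was 0.55. Of these, 4 rose (25%) and none fell, against 10.8% and 9.83% of all genes tested. PCDHB6 had 21.6, 19.9 and 19.1 CPM in ALDH_High and 10.1, 10.3 and 9.81 CPM in ALDH_Low. The values were tight within each group and did not overlap (2.01-fold higher, log2 fold change 1.01, SE 0.13, adjusted p = 0.000565). PCDHB16 had 22.2, 21.3 and 16.4 CPM against 11.7, 13.2 and 8.81 CPM (log2 fold change 0.82, SE 0.19, adjusted p = 0.0113). PCDHB11 had 2.41, 2.11 and 2.73 CPM against 0.934, 1.24 and 0.647 CPM (log2 fold change 1.36, SE 0.32, adjusted p = 0.0129). Neither gene had overlapping groups. The calls of PCDHB6 and PCDHB16 held in all 6 fits without 1 library, and that of PCDHB11 was lost without ALDH_Low replicate 3 (adjusted p 0.0502). PCDHB5, named after its values were seen, had a log2 fold change of 0.59 (adjusted p = 0.0353) and lost its call when any 1 ALDH_Low library was left out. PCDHB2, the most abundant beta gene, had 23.5, 21.5 and 23.8 CPM in ALDH_High and 22, 21.9 and 21 CPM in ALDH_Low and did not pass (log2 fold change 0.09, SE 0.12, adjusted p = 0.68). Summed CPM was 126 ± 12.7 and 89.1 ± 4.92, a ratio of 1.41.

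**Figure D4:**
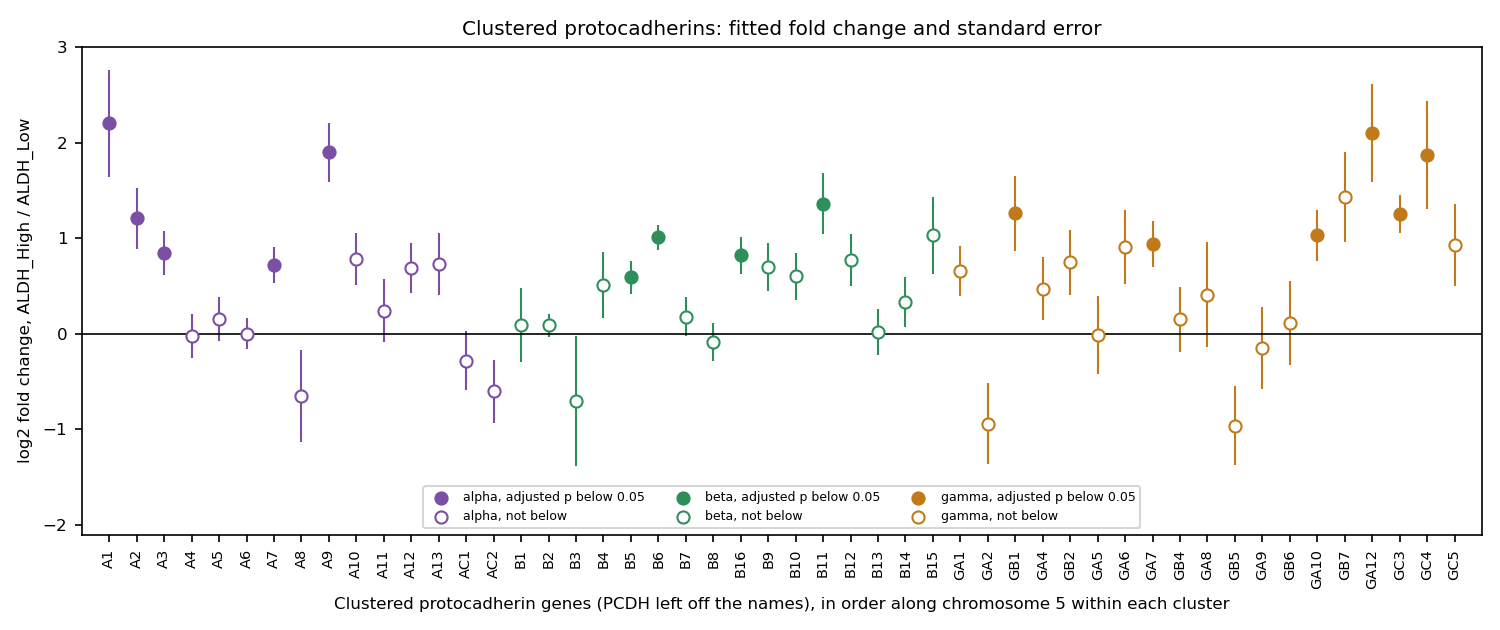
Fitted log2 fold change of ALDH_High over ALDH_Low (y axis; bars are 1 standard error) of the 50 tested clustered protocadherins in gene order (x axis). Filled points pass an adjusted p of 0.05: 5 alpha, 4 beta and 6 gamma genes, all above 0, with genes near 0 between them.

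Genes of the clusters cannot be counted as cleanly as other genes. In the GENCODE 44 annotation, 19.2% to 56.6% of the exonic bases of an alpha gene (median 46.6%) and 27.5% to 64.4% of those of a gamma gene (median 43.8%) are shared with other members, while no exonic base of a beta gene is. The beta genes are close copies of each other in sequence. How the authors assigned reads to shared exons is not given in the sources used here, so the division among alpha and gamma genes is uncertain. Reads divided within a cluster stay in its sum above, whereas reads left uncounted would be missing from that sum too. Which of these applied was not tested.

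Values of the genes around the clusters are given beside them, and whether the region moved as a whole was not tested. Of the other protein-coding genes between the first alpha gene and PCDH1, 6 were tested, none was called by edgeR or DESeq2 or had an unadjusted p under 0.05, and their median log2 fold change was -0.08; TAF7, between the beta and gamma clusters, had -0.07. Within 2000000 bases on either side and between, 48 such genes were tested, with a median of -0.07. Of these 1 was higher and 8 lower (18.8% called), against 10.8%, 9.83% and 20.6% of all genes tested. Chromosome 5 as a whole had a median of -0.01.

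The other genes of cadherin adhesion came from 7 lists, chosen by function. Of their 76 tested genes 17 passed (22.4%), against 20.6% of all genes tested. Of these 7 were higher and 10 lower, beside 10.8% and 9.83% of all genes tested. Single lists hold few genes, and their counts below are to be read beside these shares. Among catenins and tail partners 10 of 12 genes were tested, CTNND1 (p120 catenin, which holds cadherins at the membrane) rose and VCL (vinculin, which ties the junction to actin) fell, with a list median of 0.10. CTNND1 had 238, 210 and 236 CPM in ALDH_High and 179, 171 and 143 CPM in ALDH_Low (fitted log2 fold change 0.48, adjusted p = 0.0182). VCL had 149, 158 and 143 CPM against 314, 317 and 232 CPM (log2 fold change -0.94, adjusted p = 0.000882). The groups overlapped in neither gene. CTNNB1 (beta-catenin) had a log2 fold change of 0.15 and CTNNA1 (alpha-catenin) one of 0.30 (adjusted p 0.388 and 0.153). The call of CTNND1 was lost without ALDH_High replicate 3 or ALDH_Low replicate 2 or 3.

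Desmosomal genes, whose cadherins anchor keratin filaments, had a list median of -0.48, and 6 of 11 were tested. None rose and 3 fell, against 10.8% and 9.83% of all genes tested. At an unadjusted p under 0.05 none was higher and 4 were lower, and DESeq2 called the same numbers as edgeR. No shares of all genes stand beside these last counts. PKP2 (plakophilin 2) had 7.53, 9.06 and 9.23 CPM in ALDH_High and 23.8, 30.5 and 24 CPM in ALDH_Low (fitted log2 fold change -1.60, adjusted p = 9.4e-05). DSG2 (desmoglein 2) had 41.1, 39.8 and 42.7 CPM against 72.8, 77.3 and 57.4 CPM (log2 fold change -0.75, adjusted p = 0.00282). PKP3 had a log2 fold change of -0.48 (adjusted p = 0.0149) and lost its call without ALDH_High replicate 2 or ALDH_Low replicate 2. All 3 genes were lower in every ALDH_High library.

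Large cadherins outside the naming rule moved both ways, 13 of 18 being tested, 2 higher and 3 lower, with a median of 0.29. DCHS1 (dachsous, the ligand of FAT4 in planar polarity) had 11.6, 7.58 and 7.45 CPM in ALDH_High and 1.06, 0.77 and 0.755 CPM in ALDH_Low (fitted log2 fold change 3.34, adjusted p = 3.48e-05). Its receptor FAT4 had 3.12, 5.93 and 2.96 CPM against 8.79, 10.5 and 5.9 CPM, and ALDH_High replicate 2 lay just above the lowest ALDH_Low library (log2 fold change -1.06, adjusted p = 0.0368). The ligand rose and the receptor fell. FAT3 rose (log2 fold change 1.97, adjusted p = 0.0122), CELSR3, a polarity cadherin with a receptor domain, fell (log2 fold change -0.88, adjusted p = 0.00158), and CDHR4, at 0 to 0.116 CPM in ALDH_High and 0.395 to 1.04 CPM in ALDH_Low, fell (adjusted p = 0.00671). ALDH_High replicate 2 was the only library of its group with a CDHR4 count, and the fitted size of that fall depends on it. FAT4 lost its call without ALDH_High replicate 1 or 3 or ALDH_Low replicate 1 or 2, and FAT3 without ALDH_Low replicate 1 or 3.

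Of the 8 repressors known to act on cadherin genes, TWIST1 rose and TWIST2 fell, with a median of 0.09. TWIST1 had 11.8, 9.52 and 9.35 CPM in ALDH_High and 5.65, 5.49 and 6.22 CPM in ALDH_Low (fitted log2 fold change 0.82, adjusted p = 0.00901). TWIST2 had 6.78, 5.09 and 5.01 CPM against 10.8, 10.5 and 9.78 CPM (log2 fold change -0.88, adjusted p = 0.00753). The groups of each gene lay apart in opposite directions. SNAI1, SNAI2, ZEB1, ZEB2, TCF3 and TCF4 did not pass. The word CAGGTG, an E-box of the kind these factors bind, was found on either strand in 20.6% of all promoters and in 4 of 23 promoters of members outside the clusters, 0 of 13 alpha, 1 of 14 beta and 3 of 20 gamma promoters.

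Of the 14 genes of cadherin shedding and cleavage, ADAM10 (the protease that cuts N-cadherin and gamma protocadherins at the membrane) rose and ADAM15 fell, with a median of 0.15. ADAM10 had 103, 158 and 117 CPM in ALDH_High and 72.9, 93.2 and 62.4 CPM in ALDH_Low (fitted log2 fold change 0.73, adjusted p = 0.0193). ADAM15 had 287, 226 and 228 CPM against 363, 437 and 410 CPM (log2 fold change -0.71, adjusted p = 0.00353). Neither gene had overlapping groups, and ADAM10 lost its call without ALDH_High replicate 2 or ALDH_Low replicate 1 or 3. The subunits of gamma-secretase, which cuts what remains, did not pass.

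None of the 12 factors of promoter choice in the clusters was called by edgeR, among them CTCF, the cohesin subunits RAD21, SMC1A and SMC3, the cohesin release factor WAPL and the silencers SMCHD1 and SETDB1, and the list median was 0.16. At an unadjusted p under 0.05, 2 of them were higher, and DESeq2 called none, again without shares of all genes beside these counts. CTCF had 110, 113 and 117 CPM in ALDH_High and 90.4, 96.9 and 97.4 CPM in ALDH_Low. Every ALDH_High library was higher, by a log2 fold change of 0.25 (SE 0.10, adjusted p = 0.109). Of 13 effectors of protocadherins, WASF3 and CYFIP2 of the WAVE complex rose and WASF2 fell, with a median of 0.12. WASF3 had a log2 fold change of 0.57, CYFIP2 of 0.96 and WASF2 of -0.45 (adjusted p 0.0223, 0.0379 and 0.0193), and each lost its call in 4 of the 6 fits without 1 library. For WASF3 these were the fits without ALDH_High replicate 2 or 3 or ALDH_Low replicate 1 or 3, for CYFIP2 those without ALDH_High replicate 1 or 2 or ALDH_Low replicate 2 or 3, and for WASF2 those without ALDH_High replicate 2 or 3 or ALDH_Low replicate 1 or 2.

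**Figure D5:**
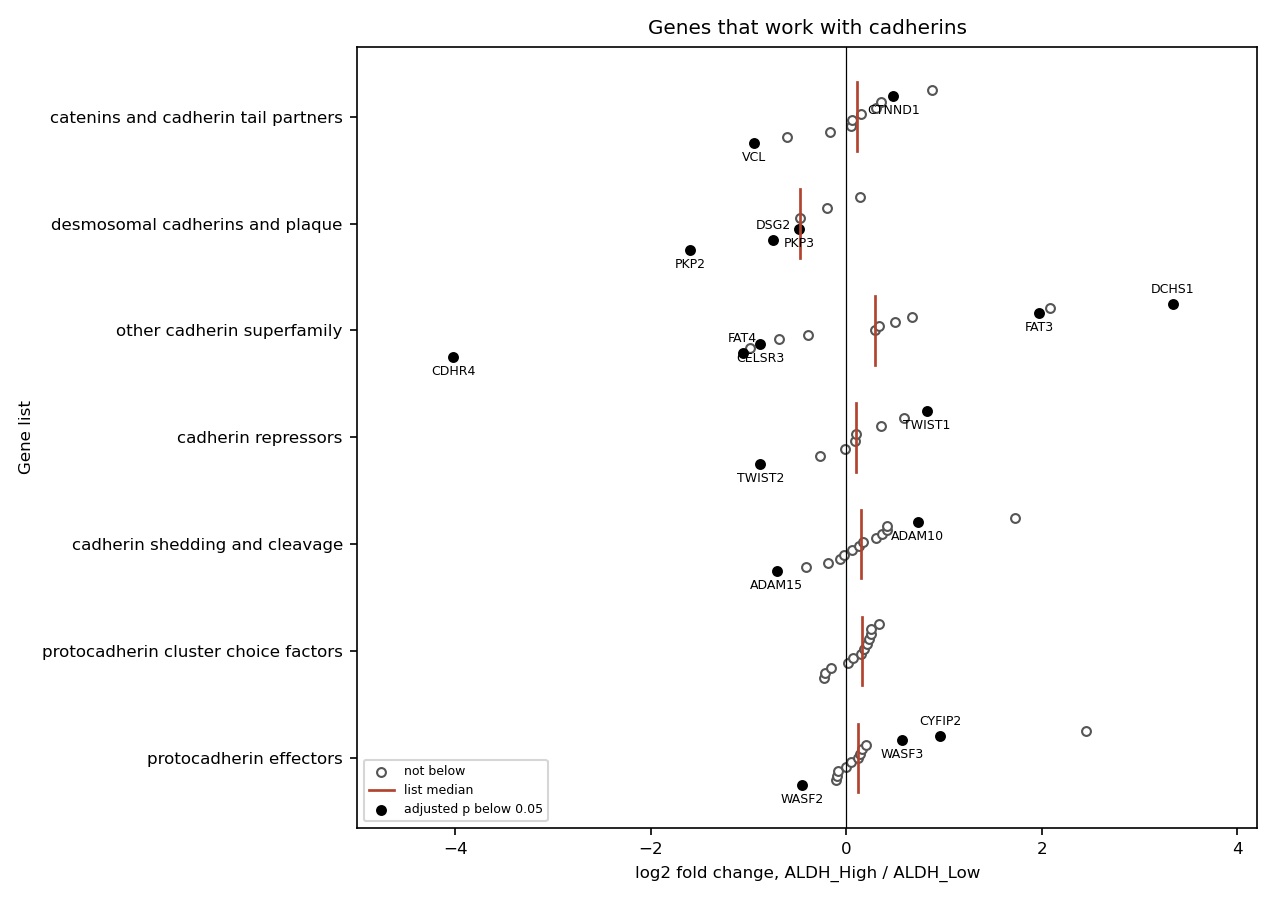
Log2 fold change of ALDH_High over ALDH_Low (x axis) of each tested gene in 7 lists of genes that work with cadherins (y axis); filled points pass an adjusted p of 0.05 and red lines are list medians. The desmosomal list has its 3 called genes below 0 and the promoter choice list has no called gene.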

How the data were processed

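The authors deposited estimated counts rounded to whole numbers, TPM and log2 coefficients of a model that sets each group against one named 1A3, per the file headers; the coefficients were read but are not reported. That counts are estimates is read from the values: 133 to 177 genes per library had a count of 0 and a TPM above 0. The submitters' processing notes list FastQC 0.11.3, STAR 2.5.1b, HTSeq 0.6.1, DESeq2 and build GRCh38, without roles; per the labels' protocols libraries were stranded mRNA (TruSeq). The annotation release is not given in the sources used here. Genes were filtered with filterByExpr (17047 tested), scaled by TMM and tested with edgeR 4.0.16 (quasi-likelihood, two-sided, Benjamini-Hochberg over all genes, threshold 0.05) in R 4.3.3. CPM use TMM-scaled totals. The 261 entries without a gene name (0.0213% to 0.0267% of counts) carry Ensembl identifiers and were kept. On simulated data 88.7% of 106 genes changed 2-fold were recovered. The changed genes averaged above 1 CPM and every gene was given the same variability. The rate therefore does not cover members with lower counts or a wider spread. A group with at most 3 counts in every library was at the floor; limits cover counting error only. Positions are from GENCODE 44 (GRCh38), matched by identifier. Named with values were members past the threshold that averaged 1 CPM or more (the 15 largest per direction), CDH1, CDH2, CDH3, CDH11, CDH13, CDH19, the 3 most abundant by TPM, and up to 3 called genes per list and direction. All other members and genes given with values were chosen after their values were seen. Members and lists were chosen with earlier results of these data known. The alternatives, 15 fits and a stricter threshold, used DESeq2 1.42.0 and limma 3.58.1 among others. No library was a duplicate of another.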

Additional observations from a re-analysis of the deposited data

How the results depend on the processing

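Beside 19 higher members, leaving out 1 library gave 8 to 19, limma on log2(TPM + 1) 7, on log2(TPM + 0.1) 8 and on log2(TPM + 1) over all genes 5, and an adjusted p under 0.01 gave 5. Beside 5 lower members, these gave 4 to 9, 4, 3, 1 and 3; no low-count filter gave 8 and a minimum of 10 counts in every library 3. Beside 17 list genes, leaving out 1 library gave 12 to 20, no filter 28 and the limma fits 11, 11 and 6. How many of all genes these settings called is not given here, so the counts have no background beside them. The limma fits with a minimum TPM tested 36 members and the count minimum 52, while limma over all genes tested 88; otherwise the cause was not tested. With the replicate block 21 members were higher and 5 lower, 24 of these 26 being shared with the fit without it, and 22 list genes were called; over all genes it called 3748 instead of 3513. Deviations from the group means correlated at 0.150, 0.076 and 0.108 between same-numbered libraries. Each library correlated best with its own number, a hint from the data and not the design, but not all values exceed 0.1 and the numbers were not used to pair libraries. DESeq2's size factors left the member calls at 19 and 5 and upper-quartile factors gave 18 and 5. No called member changed sign under any of the 15 alternative fits that gave it a value, and neither did the other genes named by rule, while 14 of the tested members that were not called did, among them PCDHA6, PCDH17, PCDH12, PCDH15, PCDH20, PCDHB8 and CDH8. Of the 24 called members, 6 kept their call in every fit that gave them a value: PCDH1, PCDHGC3, PCDHA9, PCDHB6, CDH19 and CDH7. Over the genes named by rule, the other called members and the called list genes, 117 values lost a call and 2, both of CDH3, gained one (no filter, log2 fold change -1.41, and without ALDH_High replicate 1). In all, 12 members without a call by edgeR gained one in at least 1 fit, 9 of them tested. Depth limits the 19 untested members.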

Other observations

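The tables also list pseudogenes and antisense genes with names of the family, which the choice of protein-coding genes leaves out. PCDHB17P, a transcribed pseudogene of the beta cluster, had 127, 174 and 181 counts in ALDH_High and 122, 131 and 87 in ALDH_Low, a log2 fold change of 0.53 (edgeR, adjusted p = 0.128). PCDHB18P had a log2 fold change of 0.37 (adjusted p = 0.576). PCDHB19P and PCDHGB8P had at most 7 counts in a library. The antisense genes PCDH9-AS1 to PCDH9-AS4, CDH18-AS1 and CDH23-AS1 had 0 counts in every library.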
